A study of Rubus idaeus with 6 samples.

Results

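The 74 gene models described here are those whose description names a kinase in the mapped intervals of LG3 and LG4 of raspberry, out of 19951 gene models with deposited values. They were found by the word kinase, in any case, among 1998 gene models of the study's list for the intervals, of which the copy used here stops at 7439980 bp of LG4 and lacks the rest, leaving out rows with the words cyclin, WRKY or auxin. Each description belongs to the best Arabidopsis match of a Rubus occidentalis gene model (build ORUS 4115-3 v3.0). The 20 members on LG3 lay from 35152851 to 43627122 bp and the 54 on LG4 from 82097 to 7219586 bp. Where the description gives no gene symbol, the symbol used here is the common name of the matched Arabidopsis locus. The gene models were counted by RNA sequencing in buds of ‘Heritage’, an annual-fruiting (AF) red raspberry that flowers on canes of the current year, and of ‘Wakefield’, a biennial-fruiting (BF) one that flowers on canes of the year before. Each cultivar had 3 libraries, numbered 62, 63 and 64 for ‘Heritage’ and 59, 60 and 61 for ‘Wakefield’, which the study describes as biological replicates. All buds came from axils 5 to 10 nodes under the shoot apex of field-grown plants and were taken on November 5, in the southern spring. Neither cultivar had been treated, and the sources used here do not give plant age. Each fruiting habit is represented by 1 cultivar, so that habit cannot be told apart from any other difference between the cultivars, and neither cultivar is a parent of the population in which the intervals were mapped.

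Protein kinases attach phosphate to other proteins and so switch them on or off. Receptor kinases sit in the plasma membrane, where an outer domain (leucine-rich repeats, an S-domain lectin, a wall-associated or a cysteine-rich domain) reads a peptide, sugar or wall fragment and an inner domain passes the signal to cytoplasmic kinases and to MAP kinase cascades. Cytokinin, a hormone known for releasing axillary buds from rest, is read by histidine kinases, and brassinosteroid, a growth hormone, by a leucine-rich repeat receptor kinase that shuts off the kinase BIN2.

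Not every member was a protein kinase. By their descriptions 59 of the 74 were, 10 phosphorylate sugars, lipids or other metabolites, and 5 carry the word for another reason, such as a phosphatase of MAP kinases. Of the 59, 31 were receptor kinases. Descriptions on LG3 held at most 46 characters, against 125 on LG4, so that on LG3 some receptor kinases lost the word kinase and fell outside the rule. These are given at the end.

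Kinase transcripts differed between the cultivars in both directions and about as often as other transcripts. Values are normalized counts, which are reads per gene model divided by a size factor for the library, with no correction for gene length. The test was limma on log2(normalized count + 1), and a gene model was called where the p adjusted over the whole table was under 0.05. Log2 fold changes are ‘Heritage’ minus ‘Wakefield’. Of the 71 members that reached 10 normalized counts in at least 3 libraries, 12 were higher and 13 were lower in ‘Heritage’ than in ‘Wakefield’, and 46 did not pass. That is 35.2% called, beside a background of 33.5% of all 17898 gene models tested (16.0% higher and 17.5% lower). The median log2 fold change of the members was -0.022, beside 0.010 for all gene models tested, and the median size was 0.35 beside 0.38. At the stricter threshold of the study (adjusted p below 0.01 with a change of more than 1 in size on the log2 scale), 3 members were higher and 1 was lower, beside 9.62% of all gene models tested (4.45% higher and 5.17% lower). The study set that threshold on DESeq2 results. Here it was applied to limma, so these shares are not those of the study. The ‘Heritage’ libraries lay wholly above those of ‘Wakefield’ for 17 members and wholly below for 20, 37 in all, beside 27.0% and 26.2%, together 53.2%, of all gene models tested. A member share so near the background is no result about kinases as a whole, and the values by class and gene follow. Of the 71, WAK3 (Ro03_G17156), BIR3 (Ro04_G36235) and Ro04_G00362 had a mean under 10 in 1 cultivar. The WAK3 and BIR3 gene models passed the filter through the other cultivar. Ro04_G00362 passed it through ‘Heritage’ libraries 63 and 64 and ‘Wakefield’ library 59. WAK2 (Ro03_G17147) reached 10 in every ‘Wakefield’ library but in ‘Heritage’ only in library 62. Without 1 library the calls numbered fewer, with 6 higher and 6 lower without ‘Heritage’ library 62, 4 and 4 without library 63, 9 and 7 without library 64, and 7 and 5 without ‘Wakefield’ library 60. Calls over all gene models tested fell as well, from 5994 to 3524, 3083, 4155 and 4341 in the same order.

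**Figure D1:**
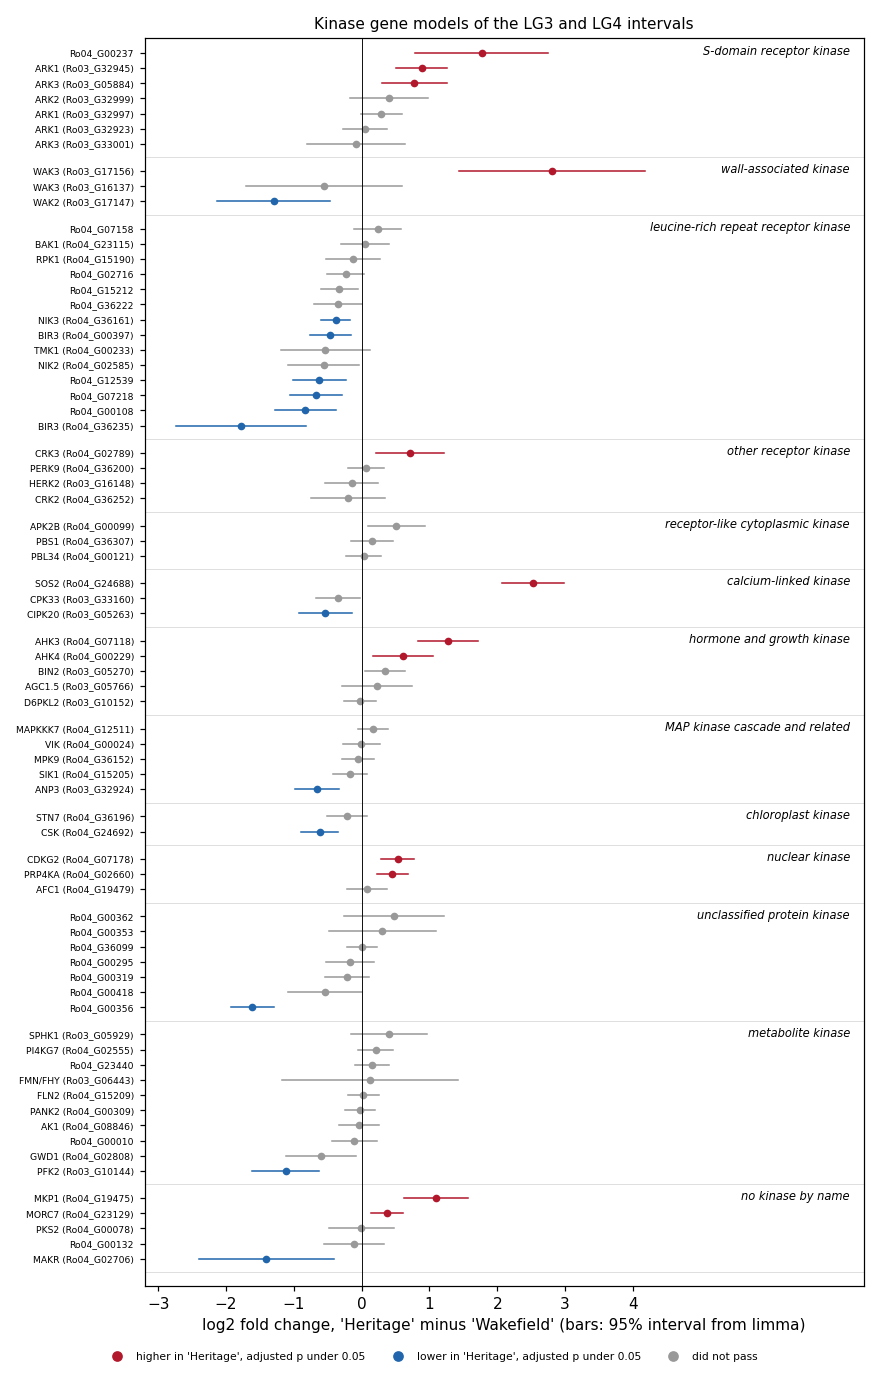
Log2 fold change, ‘Heritage’ minus ‘Wakefield’, of the 71 tested members (points) with its 95% interval from limma (bars), grouped by class, red where higher, blue where lower and grey where the test was not passed. Among the leucine-rich repeat receptor kinases 6 of 14 were lower and 0 were higher, and among the S-domain receptor kinases 3 of 7 were higher and 0 were lower.

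Reads recovered from the normalized counts came to 11334885 to 12704172 per ‘Heritage’ library and 7345603 to 14977596 per ‘Wakefield’ library, the smallest being ‘Wakefield’ library 60. The median SD of a member over the libraries of a cultivar was 0.14 in ‘Heritage’ and 0.16 in ‘Wakefield’ on the log2 scale. Transcripts of green leaf tissue, which a bud sample can hold, were lower in ‘Heritage’. Of 7 leaf photosynthesis markers, all detected in every library, 5 were lower, 2 did not pass, and their summed normalized count was 9169.8 to 10379.5 in ‘Heritage’ and 14878 to 20528 in ‘Wakefield’. For each of the 7 every ‘Heritage’ library lay below every ‘Wakefield’ library. In such bulk samples fewer cells of a type and less RNA per cell cannot be told apart. No list of genes that define a bud was tested.

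Transcripts of both cytokinin receptor genes of the intervals were higher in ‘Heritage’ buds. AHK3 (Ro04_G07118, at 6724611 bp of LG4), described as histidine kinase 3, one of the membrane receptors that start cytokinin signalling, had 3985, 2894 and 2605 normalized counts in ‘Heritage’, against 1409.9, 1250.4 and 1215 in ‘Wakefield’. Every ‘Heritage’ library lay above every ‘Wakefield’ library, and the level in ‘Heritage’ was 2.45 times that in ‘Wakefield’ (log2 fold change 1.27, SE 0.18, limma adjusted p = 0.00534). AHK3 passed under each of its 14 alternatives, with adjusted p values of 4.0e-11 to 0.0237 over 14 alternatives. AHK4 (Ro04_G00229, AT2G01830, at 2069718 bp of LG4), the CHASE-domain cytokinin receptor also known in Arabidopsis for vascular patterning in the root, had 2246, 2966 and 3370.0 normalized counts in ‘Heritage’, against 1686, 2089 and 1784 in ‘Wakefield’. The cultivars did not overlap, but ‘Heritage’ library 62 lay close to ‘Wakefield’ library 60, and the change was smaller (log2 fold change 0.61, SE 0.18, limma adjusted p = 0.0463). The call for AHK4 was lost with no filter on low counts and without ‘Heritage’ library 63 or 64 or ‘Wakefield’ library 59, 60 or 61, with adjusted p values of 0.00219 to 0.139 over 14 alternatives.

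**Figure D2:**
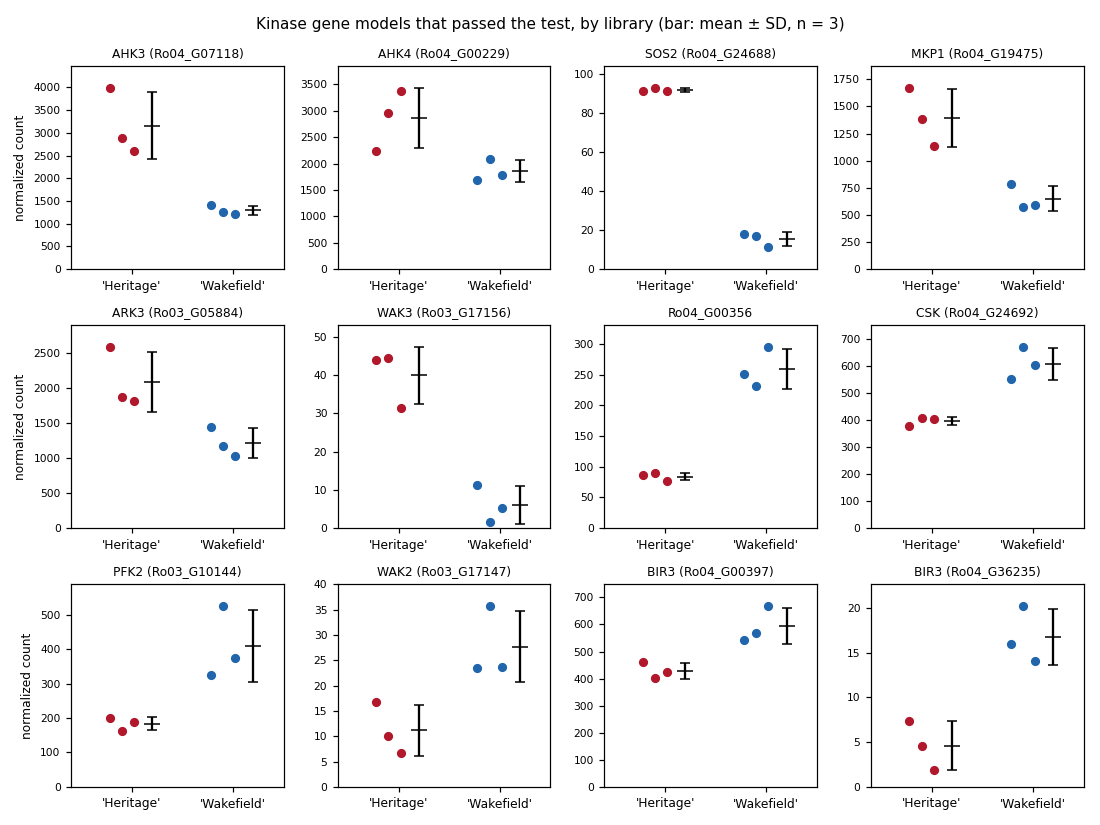
Normalized counts by library (points) of 12 members that passed the test, with mean ± SD (n = 3) beside them, ‘Heritage’ in red and ‘Wakefield’ in blue, each panel with its own axis from 0. The 3 SOS2 points of ‘Heritage’ sit between 91.0 and 92.7, and in all 12 panels the cultivars do not overlap.

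Cytokinin response regulators, which act after these receptors, did not pass in limma at the settings given above. Of 3 in the intervals 0 were called in limma, 1 passed in edgeR and in DESeq2, and limma gave 1 an unadjusted p under 0.05. With a filter of 50, with a mean-variance trend or without ‘Heritage’ library 62, limma too called 1 higher. ARR5 (Ro04_G00382), a quick response gene that damps cytokinin signalling, had 744, 1013 and 1019 normalized counts in ‘Heritage’, against 634, 689 and 674 in ‘Wakefield’ (log2 fold change 0.46, SE 0.15, limma adjusted p = 0.0626). Its ‘Heritage’ libraries lay above those of ‘Wakefield’. ARR14 and ARR11, which switch on cytokinin target genes, had log2 fold changes of -0.051 and 0.10.

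The brassinosteroid kinase BIN2 (Ro03_G05270, described as SHAGGY-like kinase 21, at 40114160 bp of LG3), which holds brassinosteroid target genes off, had 5189, 4845 and 4591 normalized counts in ‘Heritage’, against 3396, 4226 and 3897 in ‘Wakefield’. The cultivars did not overlap, yet the difference did not pass in limma (log2 fold change 0.35, SE 0.12, limma adjusted p = 0.0715). It passed in edgeR with TMM scaling (adjusted p = 0.0493), in DESeq2 (adjusted p = 0.0198) and in limma with a mean-variance trend (adjusted p = 0.0436), with adjusted p values of 0.0198 to 0.184 over 14 alternatives. Neither of the 2 transcription partners of this pathway, BEH3 and BIM2, passed in limma, edgeR or DESeq2, and 0 had an unadjusted p under 0.05 in limma. The remaining growth kinases did not pass either. AGC1.5 (Ro03_G05766), a kinase of tip growth in pollen tubes of Arabidopsis, had 75.3, 67.2 and 67.6 normalized counts in ‘Heritage’, against 62.9, 76.2 and 43.8 in ‘Wakefield’ (log2 fold change 0.23, SE 0.21, limma adjusted p = 0.43). D6PKL2 (Ro03_G10152), of the D6 protein kinases that activate PIN auxin efflux carriers, had 1148, 1053 and 1022 normalized counts in ‘Heritage’, against 1042, 1110.4 and 1126 in ‘Wakefield’ (log2 fold change -0.025, SE 0.10, limma adjusted p = 0.86). Its values were mixed between the cultivars, and the sign of its fold change turned without ‘Heritage’ library 64.

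S-domain receptor kinases, relatives of the self-incompatibility receptor of the Brassicaceae, were higher in ‘Heritage’ where they passed. Of 7 members 3 were higher, 0 were lower and 4 did not pass in limma, edgeR and DESeq2 alike (3 had an unadjusted p under 0.05 in limma), with a median log2 fold change of 0.40 beside 0.010 for all gene models tested and 16.0% of them called higher. ARK1 (Ro03_G32945, at 35152851 bp of LG3) had 296, 279.8 and 213 normalized counts in ‘Heritage’, against 131.5, 143 and 148 in ‘Wakefield’. All ‘Heritage’ libraries lay above all ‘Wakefield’ libraries (log2 fold change 0.88, SE 0.15, limma adjusted p = 0.00917), and ARK1 (Ro03_G32945) passed under each of its 14 alternatives, with adjusted p values of 9.4e-05 to 0.0434 over 14 alternatives. ARK3 (Ro03_G05884, at 41919111 bp of LG3) had 2589, 1872 and 1811 normalized counts in ‘Heritage’, against 1444, 1168 and 1029.9 in ‘Wakefield’ (log2 fold change 0.78, SE 0.20, limma adjusted p = 0.0293). ‘Heritage’ library 62 was highest of all and library 64 was nearest to ‘Wakefield’. The call for this ARK3 was lost without ‘Heritage’ library 62, 63 or 64 or ‘Wakefield’ library 60 or 61 (adjusted p values of 3.8e-04 to 0.0775 over 14 alternatives). The S-locus lectin kinase Ro04_G00237 (at 2018018 bp of LG4) had 129, 94.5 and 82.8 normalized counts in ‘Heritage’, against 21.6, 20.2 and 53.5 in ‘Wakefield’ (log2 fold change 1.77, SE 0.40, limma adjusted p = 0.021). Its libraries were uneven within both cultivars, ‘Wakefield’ library 61 being more than the other ‘Wakefield’ libraries together, and the call was lost without ‘Heritage’ library 62 or 63 or ‘Wakefield’ library 59 or 60 (adjusted p values of 8.6e-04 to 0.0726 over 14 alternatives). The number of S-domain kinases called higher was 1 without ‘Heritage’ library 62 or 63 or ‘Wakefield’ library 60. Higher calls over all gene models tested fell in these fits too, from 2867 to 1529, 1341 and 1967.

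The other 4 S-domain members lay from 35206918 to 35357355 bp of LG3, close to ARK1 (Ro03_G32945), and did not pass. ARK1 (Ro03_G32997) had 603, 576 and 508 normalized counts in ‘Heritage’, against 413, 468 and 498 in ‘Wakefield’ (log2 fold change 0.29, SE 0.12, limma adjusted p = 0.117), with all ‘Heritage’ libraries above those of ‘Wakefield’. ARK2 (Ro03_G32999) had 61.7, 58.1 and 53.3 normalized counts in ‘Heritage’, against 40.4, 32.7 and 61.6 in ‘Wakefield’ (log2 fold change 0.40, SE 0.24, limma adjusted p = 0.232). ‘Wakefield’ library 61 reached the ‘Heritage’ level, and without it the adjusted p from limma was 0.0312, the lowest of 0.0312 to 0.504 over 14 alternatives. ARK3 (Ro03_G33001) had 28.3, 15.4 and 23.8 normalized counts in ‘Heritage’, against 18.8, 32.7 and 20.05 in ‘Wakefield’ (log2 fold change -0.078, SE 0.30, limma adjusted p = 0.859). A further ARK1 (Ro03_G32923) had 30.3, 28.2 and 34.3 normalized counts in ‘Heritage’, against 28.2, 34.2 and 27.5 in ‘Wakefield’ (log2 fold change 0.047, SE 0.13, limma adjusted p = 0.809). These last members overlapped between the cultivars, and each turned sign when 1 library was left out. Gene models that passed and gene models that did not match the same Arabidopsis loci, ARK1 and ARK3. The sources used here do not say how reads shared by such close copies were counted, so that the split of reads among the ARK gene models is uncertain.

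Leucine-rich repeat (LRR) receptor kinases among the members, all on LG4, were lower in ‘Heritage’ where they passed in limma. Of 14 tested, 6 were lower in ‘Heritage’, 0 were higher and 8 did not pass in limma, with a median log2 fold change of -0.42 beside 0.010 for all gene models tested, of which 17.5% were called lower. In limma 8 had an unadjusted p under 0.05, edgeR with TMM scaling called 0 higher and 7 lower, and DESeq2 called 7 lower and 1 higher, the MIK2 gene model described further on. With no filter on low counts limma called 1 higher, again MIK2, and 6 lower of 15. With a filter of 50 it called 0 higher and 5 lower of 13. For 10 of the 14 every ‘Heritage’ library lay below every ‘Wakefield’ library, beside 26.2% of all gene models tested. These counts leave out LRR receptor kinases of LG3 and LG4 whose description lacks the word kinase. Among those, given at the end, BRI1 was higher (log2 fold change 1.33) and SRF8 was lower (-0.57). PSKR1, SRF3 and BRL2 did not pass. As the median over the 14 of a library's log2 distance from the gene model's mean, the ‘Heritage’ libraries 62, 63 and 64 stood at -0.19, -0.21 and -0.20 and the ‘Wakefield’ libraries 59, 60 and 61 at 0.090, 0.25 and 0.19. The number of limma calls changed when single libraries were left out, with 1 lower without ‘Heritage’ library 62, 0 without library 63, 2 without library 64, 7 without ‘Wakefield’ library 59, 1 without library 60 and 5 without library 61. Lower calls over all gene models tested were 3127 with every library and 1995, 1742, 2244, 3018, 2374 and 2626 in the same order. The median log2 fold change of the LRR kinases stayed between -0.44 and -0.39 in these fits. The leaf markers moved the same way, with sums of 9169.8 to 10379.5 in ‘Heritage’ and 14878 to 20528 in ‘Wakefield’, and their part in the LRR values was not tested.

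**Figure D3:**
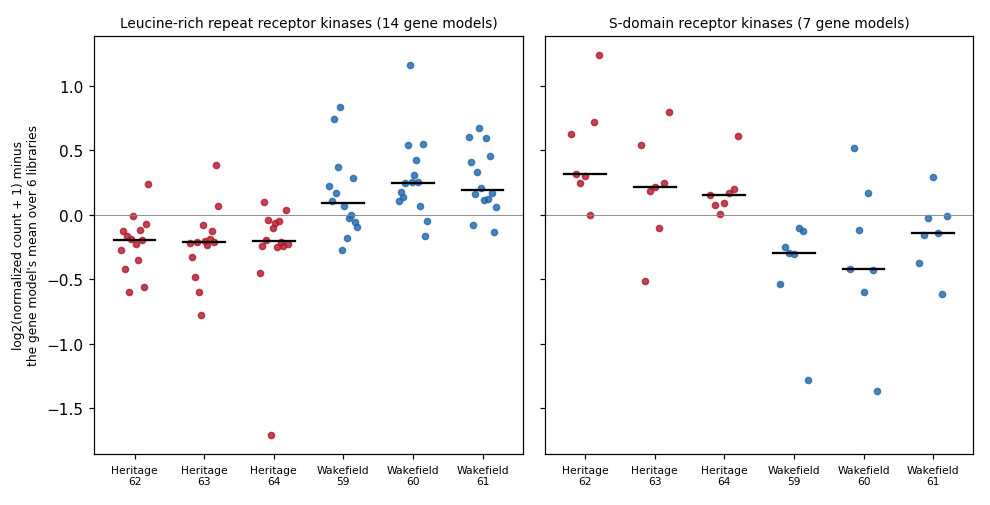
Distance of each library from the gene model's mean over the 6 libraries, on the log2(normalized count + 1) scale. Shown are the 14 LRR receptor kinases (left panel) and the 7 S-domain receptor kinases (right panel) tested among the members. Points are gene models, black bars are medians, ‘Heritage’ is red and ‘Wakefield’ blue. The LRR medians lie below 0 in the 3 ‘Heritage’ libraries, from -0.21 to -0.19, and above 0 in the 3 ‘Wakefield’ libraries, from 0.090 to 0.25.

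Among the 6 lower LRR kinases were both gene models of BIR3 (AT1G27190), a pseudokinase that in Arabidopsis binds the co-receptor BAK1 and keeps it from immune and growth receptors. BIR3 (Ro04_G00397, at 1062124 bp of LG4) had 461, 402 and 425 normalized counts in ‘Heritage’, against 543, 568 and 669 in ‘Wakefield’ (log2 fold change -0.46, SE 0.12, limma adjusted p = 0.0336). BIR3 (Ro04_G36235, at 3208980 bp of LG4) was read at a low level, with 7.32, 4.54 and 1.90 normalized counts in ‘Heritage’, against 16.0, 20.2 and 14.1 in ‘Wakefield’ (log2 fold change -1.78, SE 0.39, limma adjusted p = 0.0191). This gene model passed the filter on low counts through ‘Wakefield’ alone, with a mean of 16.8 there and 4.59 in ‘Heritage’. In both BIR3 gene models the cultivars did not overlap. The first lost the call without ‘Heritage’ library 62, 63 or 64 or ‘Wakefield’ library 60 or 61 (adjusted p values of 0.00757 to 0.123 over 14 alternatives), and the other without ‘Heritage’ library 63 or ‘Wakefield’ library 60 (adjusted p values of 0.00917 to 0.0587 over 13 alternatives). BAK1 itself (Ro04_G23115, at 6995845 bp of LG4), the shared co-receptor of brassinosteroid and immune receptors, had 623, 554 and 451 normalized counts in ‘Heritage’, against 495, 512 and 549 in ‘Wakefield’ (log2 fold change 0.054, SE 0.14, limma adjusted p = 0.796). Its values overlapped, and the sign of its fold change turned without ‘Heritage’ library 62.

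NIK3 (Ro04_G36161, at 2155256 bp of LG4), of the NSP-interacting kinases known from antiviral defence, had 945, 917 and 926 normalized counts in ‘Heritage’, against 1193, 1258 and 1186 in ‘Wakefield’ (log2 fold change -0.38, SE 0.088, limma adjusted p = 0.0221). The difference was small beside the others but the libraries of each cultivar lay close together. The call for NIK3 was lost without ‘Heritage’ library 62, 63 or 64 or ‘Wakefield’ library 60 (adjusted p values of 0.00109 to 0.0951 over 14 alternatives). The other 3 lower LRR kinases are described by family only. Ro04_G12539 (AT1G10850, at 567441 bp of LG4) had 374, 388 and 330.4 normalized counts in ‘Heritage’, against 528, 487 and 687 in ‘Wakefield’ (log2 fold change -0.63, SE 0.16, limma adjusted p = 0.0299). Ro04_G00108 (AT1G14390, at 2777678 bp of LG4) had 249, 249 and 368 normalized counts in ‘Heritage’, against 488, 551 and 477 in ‘Wakefield’ (log2 fold change -0.83, SE 0.18, limma adjusted p = 0.0195). Ro04_G07218 (AT1G67720, at 6064027 bp of LG4) had 491, 625 and 612 normalized counts in ‘Heritage’, against 881, 1061 and 815 in ‘Wakefield’ (log2 fold change -0.67, SE 0.15, limma adjusted p = 0.0222). In all 3 the highest ‘Heritage’ library lay below the lowest ‘Wakefield’ library. The call was lost for Ro04_G12539 without ‘Heritage’ library 62, 63 or 64, for Ro04_G00108 without ‘Heritage’ library 62 or 63 or ‘Wakefield’ library 60 and for Ro04_G07218 without ‘Heritage’ library 62, 63 or 64 or ‘Wakefield’ library 60, with highest adjusted p values of 0.0883, 0.0726 and 0.0629. Of the 8 that did not pass, 3 lie in the fine-mapped part of LG4 and are given with it, and the 4 besides BAK1 were TMK1 (Ro04_G00233, log2 fold change -0.54), Ro04_G36222 (-0.35), Ro04_G02716 (-0.24) and Ro04_G07158 (0.24), the last being highest of the 14.

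The LRR kinase under the filter was read in ‘Heritage’ alone. MIK2 (Ro04_G36138, AT4G08850, at 1991995 bp of LG4), in Arabidopsis a receptor for small peptides of stress and immunity, had 14.6, 9.08 and 10.5 normalized counts in ‘Heritage’, against 0, 0 and 0 in ‘Wakefield’. These rest on 14, 10 and 11 reads in ‘Heritage’, and no read was found in any ‘Wakefield’ library. The ‘Heritage’ mean of 11.4 was at least 11.6-fold higher than the floor for ‘Wakefield’, taken as 3 reads in its 3 libraries together. With no filter the adjusted p was 3.5e-04 from limma, and it was 4.4e-04 from DESeq2, so that its direction is opposite to that of the called LRR kinases. Reads were aligned to gene models of another Rubus species, and whether a sequence difference between the cultivars takes part in the 0 was not tested.

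Wall-associated kinases, which bind pectin of the cell wall, split in direction. Their 4 gene models lie from 37819883 to 38013019 bp of LG3. WAK3 (Ro03_G17156) had 43.9, 44.5 and 31.4 normalized counts in ‘Heritage’, against 11.3, 1.56 and 5.20 in ‘Wakefield’ (log2 fold change 2.80, SE 0.56, limma adjusted p = 0.0146). Its size rests on low ‘Wakefield’ counts, the log2 fold change being 1.68 with a pseudocount of 10 and 2.21 without ‘Wakefield’ library 60. These counts were few, down to 1 read in library 60, and the call was lost without ‘Heritage’ library 62 or 63 (adjusted p values of 9.1e-05 to 0.0541 over 13 alternatives). WAK2 (Ro03_G17147, at 37910504 bp of LG3) had 16.7, 9.99 and 6.67 normalized counts in ‘Heritage’, against 23.5, 35.8 and 23.8 in ‘Wakefield’ (log2 fold change -1.30, SE 0.34, limma adjusted p = 0.0319), opposite to WAK3. Its call was lost with DESeq2 and without ‘Heritage’ library 63 or 64 or ‘Wakefield’ library 59, 60 or 61 (adjusted p values of 0.0213 to 0.0962 over 13 alternatives). A different WAK3 gene model (Ro03_G16137) had 11.5, 13.6 and 9.52 normalized counts in ‘Heritage’, against 18.8, 32.7 and 8.17 in ‘Wakefield’ and did not pass (log2 fold change -0.56, SE 0.47, limma adjusted p = 0.392). ‘Wakefield’ library 61 lay below every ‘Heritage’ library, and without it the adjusted p from limma was 0.0476, the lowest of 0.0476 to 0.834 over 13 alternatives. The last WAK3 (Ro03_G33043) was not tested, with 4.19, 4.54 and 1.90 normalized counts in ‘Heritage’, against 3.76, 12.4 and 2.23 in ‘Wakefield’. Since 3 gene models match WAK3 alike, reads may be split among them in a way that is uncertain.

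Among the 5 other receptor kinases 1 was higher in ‘Heritage’, 3 did not pass and 1 was not tested. CRK3 (Ro04_G02789, at 5321156 bp of LG4), a cysteine-rich receptor-like kinase, had 451, 379.8 and 320.0 normalized counts in ‘Heritage’, against 293, 196 and 215 in ‘Wakefield’ (log2 fold change 0.71, SE 0.20, limma adjusted p = 0.0412). The call was lost without ‘Heritage’ library 62, 63 or 64 or ‘Wakefield’ library 60 or 61 (adjusted p values of 0.00668 to 0.119 over 14 alternatives). CRK2 (Ro04_G36252), 14.8 kb away, had a log2 fold change of -0.20 and did not pass. HERK2, of the family that senses wall state during cell elongation, has a gene model on each linkage group. The one on LG3 (Ro03_G16148) had a log2 fold change of -0.15 and did not pass. The one on LG4 (Ro04_G00335) had 9.42, 6.36 and 6.67 normalized counts in ‘Heritage’, against 3.76, 1.56 and 3.71 in ‘Wakefield’ and stayed under the filter, though its cultivars did not overlap. With no filter the adjusted p of Ro04_G00335 from limma was 0.0379, and from DESeq2 0.311, on at most 9 reads in a library.

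Receptor-like cytoplasmic kinases carry signals from these receptors into the cell. Of 3, 0 were called in limma, 1 passed in edgeR and in DESeq2, and limma gave 1 an unadjusted p under 0.05. That gene model was APK2B (Ro04_G00099, log2 fold change 0.51, limma adjusted p = 0.065, DESeq2 adjusted p = 0.0127), named here after its values were seen. PBS1 (Ro04_G36307), a kinase of immune signalling in Arabidopsis, had 719.9, 776 and 768 normalized counts in ‘Heritage’, against 729, 731 and 583 in ‘Wakefield’ (log2 fold change 0.16, SE 0.13, limma adjusted p = 0.372). PBL34 (Ro04_G00121) had a log2 fold change of 0.029.

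Of 3 calcium-linked kinases 1 was higher, 1 was lower and 1 did not pass in limma. SOS2 (Ro04_G24688, AT5G35410, at 5490146 bp of LG4), a CBL-interacting protein kinase that in Arabidopsis activates the sodium exporter SOS1 under salt, had 91.0, 92.7 and 91.4 normalized counts in ‘Heritage’, against 17.8, 17.1 and 11.1 in ‘Wakefield’. The ‘Heritage’ libraries were nearly equal and lay far above ‘Wakefield’, 5.97 times its level (log2 fold change 2.53, SE 0.19, limma adjusted p = 8.6e-04). SOS2 passed under each of its 14 alternatives (adjusted p values of 9.5e-12 to 0.00732 over 14 alternatives). CIPK20 (Ro03_G05263), a kinase of the same family, had 64.9, 89.9 and 75.2 normalized counts in ‘Heritage’, against 127, 103 and 104 in ‘Wakefield’ and was lower (log2 fold change -0.54, SE 0.16, limma adjusted p = 0.0478). Its call was lost in 12 of 14 alternatives, with edgeR with TMM scaling, edgeR with RLE scaling, DESeq2, pseudocount 0.1, no filter on low counts and limma with a mean-variance trend and without ‘Heritage’ library 62, 63 or 64 or ‘Wakefield’ library 59, 60 or 61 (adjusted p values of 0.0369 to 0.127 over 14 alternatives). CPK33 (Ro03_G33160), a calcium-dependent protein kinase that in Arabidopsis takes part in flowering with the factor FD, had 854, 964 and 957 normalized counts in ‘Heritage’, against 1052, 1143 and 1359 in ‘Wakefield’. All ‘Heritage’ libraries lay below those of ‘Wakefield’, but the difference did not pass in limma (log2 fold change -0.35, SE 0.13, limma adjusted p = 0.0871). It passed in edgeR with TMM scaling (adjusted p = 0.0454) and RLE scaling (adjusted p = 0.0445), in DESeq2 (adjusted p = 0.0400) and in limma with a trend (adjusted p = 0.0461), with adjusted p values of 0.04 to 0.218 over 14 alternatives.

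In the MAP kinase cascades 1 of 5 members was lower in ‘Heritage’ and the phosphatase that shuts MAP kinases off was higher. MKP1 (Ro04_G19475, at 5722382 bp of LG4), MAP kinase phosphatase 1, which is no kinase, had 1669.9, 1385 and 1137 normalized counts in ‘Heritage’, against 781, 577 and 589.6 in ‘Wakefield’. The ‘Heritage’ libraries spread more but all lay above ‘Wakefield’ (log2 fold change 1.10, SE 0.19, limma adjusted p = 0.0099), and MKP1 passed under each of its 14 alternatives (adjusted p values of 2.5e-07 to 0.0421 over 14 alternatives). ANP3 (Ro03_G32924, at 35353685 bp of LG3), a MAP kinase kinase kinase of cell division and oxidative stress, had 97.3, 79.0 and 103 normalized counts in ‘Heritage’, against 137, 148 and 154 in ‘Wakefield’. It was lower with no overlap (log2 fold change -0.65, SE 0.13, limma adjusted p = 0.0152), under each of its 14 alternatives too (adjusted p values of 0.0105 to 0.0496 over 14 alternatives). MAPKKK7, MPK9 and VIK did not pass. MAPKKK7 (Ro04_G12511) had 3679, 3715 and 3637 normalized counts in ‘Heritage’, against 3227, 3152 and 3461 in ‘Wakefield’ (log2 fold change 0.17, SE 0.091, limma adjusted p = 0.205). MPK9 (Ro04_G36152), a MAP kinase of guard cells, had 1369.6, 1357 and 1230.3 normalized counts in ‘Heritage’, against 1343, 1406 and 1346 in ‘Wakefield’ (log2 fold change -0.051, SE 0.10, limma adjusted p = 0.706). VIK (Ro04_G00024), a Raf-like kinase of leaf veins in Arabidopsis, had 1047, 1059 and 1211 normalized counts in ‘Heritage’, against 1038, 1184 and 1100.5 in ‘Wakefield’ (log2 fold change -0.0028, SE 0.11, limma adjusted p = 0.987). MAPKKK7 was above ‘Wakefield’ in all ‘Heritage’ libraries, the other pair overlapped, and the sign for VIK turned without ‘Heritage’ library 62 or 63 or ‘Wakefield’ library 60. The remaining one, SIK1, lies in the fine-mapped part of LG4.

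Of 3 nuclear kinases, all linked to splicing, 2 were higher. CDKG2 (Ro04_G07178, AT1G67580, at 6313095 bp of LG4), a cyclin-dependent kinase of group G, had 1874, 1763 and 1744 normalized counts in ‘Heritage’, against 1166, 1230.2 and 1332 in ‘Wakefield’ (log2 fold change 0.53, SE 0.10, limma adjusted p = 0.0122). PRP4KA (Ro04_G02660, AT3G25840, at 4601017 bp of LG4), a kinase of splicing factors, had 1192, 1198 and 1107 normalized counts in ‘Heritage’, against 858, 819.6 and 879.9 in ‘Wakefield’ (log2 fold change 0.45, SE 0.093, limma adjusted p = 0.0161). Both changes were under 1 on the log2 scale and the cultivars did not overlap. CDKG2 lost the call without ‘Heritage’ library 63 (adjusted p values of 1.7e-05 to 0.053 over 14 alternatives) and PRP4KA without ‘Heritage’ library 62 or 63 (adjusted p values of 2.7e-04 to 0.0756 over 14 alternatives). AFC1 (Ro04_G19479), which phosphorylates splicing factors too, had a log2 fold change of 0.078 and did not pass.

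A chloroplast kinase was lower in ‘Heritage’, as were the leaf markers. CSK (Ro04_G24692, at 5515825 bp of LG4), the chloroplast sensor kinase that links photosynthetic electron flow to chloroplast gene transcription, had 378, 406 and 402 normalized counts in ‘Heritage’, against 551, 670.3 and 603 in ‘Wakefield’. The cultivars were apart (log2 fold change -0.62, SE 0.11, limma adjusted p = 0.0107), under each of its 14 alternatives (adjusted p values of 8.9e-05 to 0.0452 over 14 alternatives). STN7 (Ro04_G36196), the thylakoid kinase that shifts light-harvesting complexes between photosystems, had a log2 fold change of -0.21 and did not pass. Among the leaf markers RBCS1A (Ro04_G02684), the small subunit of Rubisco, had 18.8, 32.7 and 29.5 normalized counts in ‘Heritage’, against 213, 191 and 112 in ‘Wakefield’ (log2 fold change -2.61, SE 0.31, limma adjusted p = 0.00324). LHCA2 (Ro04_G07134), a light-harvesting protein of photosystem I, had 1368, 1488 and 1872 normalized counts in ‘Heritage’, against 4674, 4915 and 3907 in ‘Wakefield’ (log2 fold change -1.52, SE 0.16, limma adjusted p = 0.00234). PSAF (Ro03_G10895, log2 fold change -0.79) and PSAK (Ro03_G24832, -0.61), subunits of photosystem I, were lower as well, PSAK not without ‘Heritage’ library 62 or 63 (highest adjusted p 0.0701). Whether the amount of leaf tissue takes part in the CSK value was not tested.

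Of 7 protein kinases that could be given no class 1 was lower and 0 were higher in limma, edgeR called the same numbers, and DESeq2 called 2 lower. Ro04_G00356 (AT1G24030, a protein kinase superfamily member, at 1286815 bp of LG4) had 85.8, 89.0 and 77.1 normalized counts in ‘Heritage’, against 251, 232 and 296 in ‘Wakefield’. Every ‘Heritage’ library lay far below every ‘Wakefield’ library (log2 fold change -1.61, SE 0.13, limma adjusted p = 0.00109), and the call held under each of its 14 alternatives (adjusted p values of 1.4e-13 to 0.00815 over 14 alternatives). The other 6 did not pass in limma, with log2 fold changes from -0.54 (Ro04_G00418) to 0.48 (Ro04_G00362). Of these Ro04_G00418 passed in DESeq2 (adjusted p = 0.0415) and Ro04_G00353 in limma without ‘Wakefield’ library 59 (log2 fold change 0.67, adjusted p = 0.0227), both named after their values were seen.

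Of 10 metabolite kinases 1 was lower and 9 did not pass in limma, with a median log2 fold change of 0.0015 and a median size of 0.14. In edgeR, in DESeq2 and in limma with a mean-variance trend 2 were lower. PFK2 (Ro03_G10144, at 43627122 bp of LG3), a phosphofructokinase that commits sugar to glycolysis, had 199.8, 162 and 189 normalized counts in ‘Heritage’, against 325, 526 and 373 in ‘Wakefield’. It was lower with no overlap (log2 fold change -1.12, SE 0.20, limma adjusted p = 0.0108), under each of its 14 alternatives (adjusted p values of 4.9e-06 to 0.0459 over 14 alternatives), while ‘Wakefield’ library 60 stood above its fellows. GWD1 (Ro04_G02808), which starts starch breakdown, had a log2 fold change of -0.60 (limma adjusted p = 0.0735) and is named after its values were seen. It passed in edgeR with TMM or RLE scaling (adjusted p = 0.0478 in each) and in DESeq2 (adjusted p = 0.0182). It also passed in limma with a mean-variance trend (adjusted p = 0.0398) and in limma without ‘Heritage’ library 64 (adjusted p = 0.0355). Those outside the fine-mapped part of LG4 that remain were SPHK1, the riboflavin kinase FMN/FHY, a pyruvate kinase, PANK2, the aspartate kinase AK1 and an amino acid kinase, with log2 fold changes from -0.11 to 0.40.

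Of the 5 members that are no kinase by name, MKP1 was given above and 2 more passed. MORC7 (Ro04_G23129, AT4G24970, at 6925328 bp of LG4), a nuclear ATPase of gene silencing whose description names a histidine kinase-like fold, had 308, 275 and 297 normalized counts in ‘Heritage’, against 232.9, 218 and 225 in ‘Wakefield’ (log2 fold change 0.38, SE 0.10, limma adjusted p = 0.0293). A membrane-associated kinase regulator (MAKR, Ro04_G02706, at 4853537 bp of LG4) had 13.6, 16.4 and 10.5 normalized counts in ‘Heritage’, against 19.7, 42.0 and 59.4 in ‘Wakefield’ (log2 fold change -1.40, SE 0.41, limma adjusted p = 0.0438). MORC7 was higher and the MAKR gene model lower, each with no overlap, but ‘Wakefield’ library 59 of MAKR lay near ‘Heritage’. MORC7 lost the call without ‘Heritage’ library 62, 63 or 64 or ‘Wakefield’ library 60 or 61 (adjusted p values of 0.0213 to 0.0871 over 14 alternatives), and MAKR with no filter on low counts and without ‘Heritage’ library 62, 63 or 64 or ‘Wakefield’ library 60 or 61 (adjusted p values of 0.00729 to 0.12 over 13 alternatives). PKS2, a substrate of phytochrome, and an AMP-activated kinase-like gene model (Ro04_G00132) had log2 fold changes of -0.0049 and -0.12.

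In the part of LG4 to which the study narrowed RiAF4, its locus for annual fruiting on that linkage group, no kinase passed the limma test. The study gives wider and narrower bounds for it, and the wider were used. Of all gene models tested 33.5% were called, and a count over so few members is no result about the locus. Of 7 members there, from 3588972 to 4190584 bp, 0 were called in limma, 1 passed in edgeR and in DESeq2, and limma gave 2 an unadjusted p under 0.05. That one was NIK2 (Ro04_G02585, at 4111267 bp of LG4), an NSP-interacting kinase like NIK3, which had 425, 461 and 456 normalized counts in ‘Heritage’, against 478, 731 and 819 in ‘Wakefield’. ‘Wakefield’ library 59 lay near ‘Heritage’ while libraries 60 and 61 were well above (log2 fold change -0.56, SE 0.21, limma adjusted p = 0.0912). NIK2 passed in edgeR with TMM scaling (adjusted p = 0.0425) and RLE scaling (adjusted p = 0.0428), in DESeq2 (adjusted p = 0.0188) and in limma without ‘Wakefield’ library 59 (adjusted p = 0.00861), out of 0.00861 to 0.212 over 14 alternatives. The LRR kinase Ro04_G15212 (AT1G04210, at 3691800 bp of LG4) had 98.4, 99.9 and 110.5 normalized counts in ‘Heritage’, against 121.2, 143 and 125 in ‘Wakefield’, with all ‘Heritage’ libraries below ‘Wakefield’ (log2 fold change -0.33, SE 0.11, limma adjusted p = 0.0686). Between 3.6 and 4.1 Mb alone, the narrower bounds, 4 members remain, RPK1, NIK2 and PERK9 fall outside, and 0 passed in limma, edgeR or DESeq2.

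The other members of that part did not pass in limma either. Some of their 95% intervals reached past the size of changes called elsewhere, such as 0.38 for MORC7. RPK1 (Ro04_G15190, at 3588972 bp of LG4), an LRR kinase of abscisic acid signalling, had 399.7, 379.8 and 374 normalized counts in ‘Heritage’, against 333, 481 and 465 in ‘Wakefield’ (log2 fold change -0.13, SE 0.16, limma adjusted p = 0.573). SIK1 (Ro04_G15205, AT1G69220, at 3656082 bp of LG4), a kinase of cell growth and division in Arabidopsis, had 558, 565 and 628 normalized counts in ‘Heritage’, against 653, 617 and 697 in ‘Wakefield’ (log2 fold change -0.17, SE 0.10, limma adjusted p = 0.252). FLN2 (Ro04_G15209, at 3681949 bp of LG4), a fructokinase-like protein of chloroplast transcription, had 550.4, 534 and 545 normalized counts in ‘Heritage’, against 552, 504 and 547 in ‘Wakefield’ (log2 fold change 0.025, SE 0.092, limma adjusted p = 0.855). All 3 overlapped, the 95% interval of FLN2 running from -0.20 to 0.25 and that of RPK1 from -0.53 to 0.27 on the log2 scale. That of SIK1 ran from -0.42 to 0.086. PI4KG7 (Ro04_G02555, at 3924687 bp of LG4), named as a lipid kinase, had 1651, 1465 and 1538 normalized counts in ‘Heritage’, against 1239.9, 1419.9 and 1372 in ‘Wakefield’ (log2 fold change 0.21, SE 0.11, limma adjusted p = 0.176). PERK9 (Ro04_G36200, AT1G68690, at 4190584 bp of LG4), a proline-rich receptor kinase, had 687, 773 and 684 normalized counts in ‘Heritage’, against 677, 729 and 643 in ‘Wakefield’ (log2 fold change 0.065, SE 0.11, limma adjusted p = 0.664). PI4KG7 was above ‘Wakefield’ in every ‘Heritage’ library, with a 95% interval from -0.051 to 0.47, and PERK9 overlapped.

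**Figure D4:**
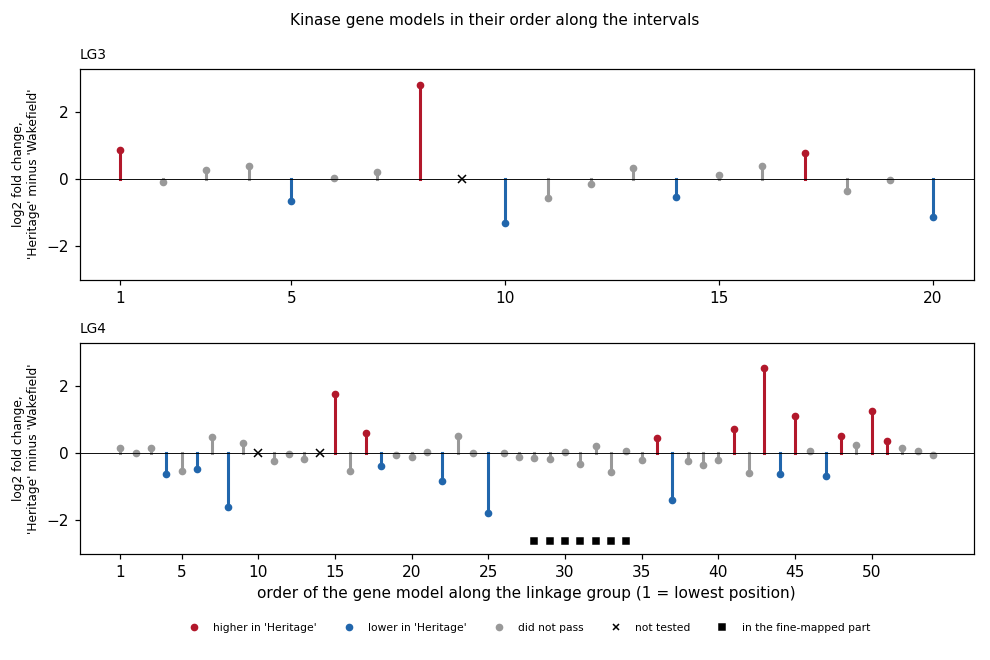
Log2 fold change, ‘Heritage’ minus ‘Wakefield’, of the 74 members in their order along LG3 (20) and LG4 (54), red where higher, blue where lower, grey where the test was not passed, with a cross for the 3 not tested and squares under the 7 in the fine-mapped part of LG4. Calls of both directions stand side by side, with 3 higher and 4 lower on LG3 and 9 of each on LG4.

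Some close neighbours differed in direction or call. SOS2 and CSK lie 25.7 kb apart on LG4 and went opposite ways (log2 fold change 2.53 and -0.62). ANP3, lower at -0.65, lies 3.7 kb from an ARK1 gene model (Ro03_G32923) at 0.047 that did not pass. AHK4, higher at 0.61, lies 13.3 kb from TMK1 at -0.54, which did not pass, and MKP1, higher at 1.10, lies 12.1 kb from AFC1 at 0.078. These pairs are examples, and other close pairs had the same call. Neither gene model passed for ARK3 (Ro03_G33001) and ARK1 (Ro03_G32997), 2.3 kb apart, or for FLN2 and Ro04_G15212, 9.9 kb apart. The same held for ARK1 (Ro03_G32997) and ARK2 (Ro03_G32999), 12.1 kb apart. On LG3, 3 of 19 members tested were higher and 4 were lower, and on LG4 9 of 52 were higher and 9 were lower.

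Receptor kinases whose LG3 description was cut short, with a few others that lack the word kinase, gave 7 higher and 2 lower of 19 tested, with a median log2 fold change of 0.36 beside 0.010 for all gene models tested. That is 36.8% higher and 10.5% lower, beside 16.0% and 17.5% of all gene models tested. CRK10 (Ro03_G10538, at 42253963 bp of LG3), a cysteine-rich receptor-like kinase, had 623, 461 and 457 normalized counts in ‘Heritage’, against 101, 128 and 79.5 in ‘Wakefield’ (log2 fold change 2.32, SE 0.22, limma adjusted p = 0.00165). Another gene model with the same match, CRK10 (Ro03_G10533, at 42217265 bp of LG3), had 29.3, 31.8 and 23.8 normalized counts in ‘Heritage’, against 147, 131 and 83.9 in ‘Wakefield’ (log2 fold change -2.02, SE 0.24, limma adjusted p = 0.00304). The first was higher and the other lower, each with no overlap, and as close copies they may share reads. Further gene models match CRK10 too, and reads may be shared with them as well. These were Ro03_G33230 (log2 fold change 0.72), Ro03_G33000 (0.36) and Ro03_G33227 (-0.14), which did not pass. CRK31 (Ro03_G33166) had 37.7, 25.4 and 21.9 normalized counts in ‘Heritage’, against 2.82, 3.11 and 5.20 in ‘Wakefield’ (log2 fold change 2.64, SE 0.27, limma adjusted p = 0.0021). This gene model, one of the 7 higher, passed the filter on low counts through ‘Heritage’ alone. Its ‘Wakefield’ values rest on 3, 2 and 7 reads, so the size of its change is uncertain. CBRLK1 (Ro03_G32998), a calmodulin-binding S-domain kinase between the ARK gene models, had 255, 243 and 222 normalized counts in ‘Heritage’, against 84.5, 119.8 and 96.5 in ‘Wakefield’ (log2 fold change 1.26, SE 0.15, limma adjusted p = 0.00335). Both were higher with no overlap. The brassinosteroid receptor BRI1 (Ro03_G17443), named after its values were seen, had 56.5, 54.5 and 52.4 normalized counts in ‘Heritage’, against 23.5, 15.6 and 25.2 in ‘Wakefield’ (log2 fold change 1.33, SE 0.19, limma adjusted p = 0.0054). Its libraries did not overlap, with ‘Heritage’ above, and as an LRR receptor kinase it was opposite to the LRR members that passed in limma. Of the other LRR receptor kinases here SRF8 (Ro03_G13511) was lower (log2 fold change -0.57), and PSKR1 (Ro04_G36112, 0.27), SRF3 (Ro03_G06454, 0.08) and BRL2 (Ro04_G00430, -0.34) did not pass. CRK10 (Ro03_G10538 and Ro03_G10533), CRK31, CBRLK1 and BRI1 passed under each of their refits with a highest adjusted p of 0.0270. The count of 2 lower, which holds SRF8 besides CRK10 (Ro03_G10533), was 1 without ‘Heritage’ library 62 or 63 or ‘Wakefield’ library 60 or 61.

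Receptor-like proteins, which have no kinase domain, and protein phosphatases, which undo the work of kinases, were counted beside them. The background in limma was 16.0% higher and 17.5% lower of all gene models tested. Of 5 receptor-like proteins tested 1 was higher and 0 were lower in limma, as in edgeR with TMM scaling and in DESeq2, with an unadjusted p under 0.05 for 2 in limma. This was RLP1 (Ro03_G32957), with 177, 157 and 172 normalized counts in ‘Heritage’, against 36.6, 28.0 and 17.1 in ‘Wakefield’ (log2 fold change 2.65, SE 0.27, limma adjusted p = 0.00208), and its libraries did not overlap. Of 9 phosphatases 0 were higher and 2 lower in limma, while edgeR with TMM scaling and DESeq2 each called 1 higher and 2 lower, and 3 had an unadjusted p under 0.05. The lower ones were of type 2C, Ro04_G24691 with 94.2, 91.8 and 85.7 normalized counts in ‘Heritage’, against 138, 177 and 202 in ‘Wakefield’ (log2 fold change -0.91, SE 0.16, limma adjusted p = 0.00992) and Ro04_G02720 with 377, 401 and 372 normalized counts in ‘Heritage’, against 480.0, 485 and 495 in ‘Wakefield’ (log2 fold change -0.34, SE 0.089, limma adjusted p = 0.0315). Ro04_G24691 lies between SOS2 and CSK on LG4, at 5507292 bp. Both had every ‘Heritage’ library below every ‘Wakefield’ library. Ro04_G02720 did not pass without any 1 of the 6 libraries (highest adjusted p 0.0908).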

How the data were processed

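Axillary bud RNA of 3 ‘Heritage’ and 3 ‘Wakefield’ samples was made into libraries with a strand-marking kit and sequenced in pairs. The authors filtered reads with Trimmomatic and SortMeRNA and used STAR to place them on gene models of Rubus occidentalis (build ORUS 4115-3 v3.0). Their processing notes give no versions. Which program counted reads, and whether it used strand, is not given in the sources used. The values that the authors deposited are a signal, namely counts per gene model divided by a size factor per library. The authors' DESeq2 columns, deposited as scores (log2 fold change, its error and a Wald statistic) and p-values, were not used. Joined gene models share a value in 2 cases. Size factors assume that most genes do not differ, and counts can depend on how far a cultivar's sequence is from the gene model.

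All values (100%) came out as whole reads within a tolerance of 0.001, which gave 7345603 to 14977596 reads per library. The precision of low counts is limited by these reads, and floors (3 reads) cover counting error only. Groups came from the cultivar in the sample labels. limma 3.58.1 (R 4.3.3) compared log2(normalized count + 1), in 17898 gene models that reached 10 in at least 3 libraries, with Benjamini-Hochberg adjustment over all of them; fold changes of low counts are understated by the pseudocount. The p-values measure the spread between libraries of 1 cultivar each. Alternatives were edgeR 4.0.16 with TMM or RLE scaling and DESeq2 1.42.0 on the recovered reads, pseudocounts of 0.1 and 10, no filter, a filter of 50, a mean-variance trend, each library left out (keeping the gene models tested with all 6), a stricter threshold, and protein kinases alone. Leaving aside the last pair, which refit nothing, a gene model has 14 of these, or 13 where the filter of 50 removes it. The fits were tested on simulated data first. Tables were made with Python 3.11.15.

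The values given by library are those of members called at an adjusted p under 0.05, of the S-domain, wall-associated, MAP kinase, calcium-linked, and hormone and growth classes, of the fine-mapped part of LG4, of members not tested, and of BAK1, BIR3 and PBS1; of related lists at most 4 called gene models by smallest adjusted p are named. Members, classes and lists were chosen with earlier results of these data known. The list for the intervals was held in part (1998 gene models, to 7439980 bp of LG4), so members beyond it were not analysed here.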

Additional observations from a re-analysis of the deposited data

How the results depend on the processing

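Of the 25 members called, 8 passed under each of the 14 alternatives that refit the test (ARK1 Ro03_G32945, ANP3, PFK2, Ro04_G00356, SOS2, CSK, MKP1 and AHK3), 17 lost the call under at least 1, and 0 changed sign. Of the 46 members tested that did not pass, 9 passed under at least 1 alternative. The 12 members higher numbered 4 to 11 and the 13 lower numbered 4 to 12 when 1 library was left out, and 3 and 1 at the stricter threshold. They numbered 14 and 15 in edgeR with TMM scaling, and 15 and 15 in DESeq2. Over all gene models tested 2867 were higher and 3127 lower in limma. With 1 library left out these numbered 1341 to 2753 and 1742 to 3018. Sign changes were counted only for the 21 members that had not passed and whose values are given by library. Leaving out 1 library turned the sign of 6 of these 21. Their log2 fold changes ran from -0.26 to 0.16 for ARK3 (Ro03_G33001), -0.027 to 0.14 for ARK1 (Ro03_G32923), -0.074 to 0.0097 for D6PKL2, -0.070 to 0.046 for VIK, -0.017 to 0.049 for FLN2 and -0.051 to 0.18 for BAK1. Fewer libraries leave less power by construction. No other cause was tested. Narrower bounds for the fine-mapped part of LG4, an alternative chosen after seeing the data, left 4 of its 7 members and still 0 called. Both sets are too small to set against the 33.5% called over all gene models tested. No paired analysis was possible because the cultivars share no replicate number. Members read at under 10 normalized counts, such as MIK2 in ‘Wakefield’, rest on too few reads for a firm fold change.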
